A study of Mus musculus with 4 samples.

Results

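The genes described here encode the Wnt ligands, their frizzled and LRP receptors, the secreted Dkk and Sfrp antagonists, and the core of the intracellular relay through beta-catenin. They were measured in kidneys of diabetic and nondiabetic mice with or without removal of a kidney. Members were the probe sets whose platform gene symbol is Wnt, Fzd, Dkk or Sfrp plus a number, or Frzb, Lrp5, Lrp6, Ctnnb1, Lef1, Tcf7, Tcf7l2, Axin1 or Axin2. This gave 91 probe sets of 45 genes, out of 45101 probe sets on the array and 34945 with 1 gene symbol (18193 genes). No probe set carried the symbol Tcf7, which was not analysed here. The rule used names only and no measured value, but it was set with earlier results of these data known.

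There were 4 groups, each measured on 1 Affymetrix 3' expression array of RNA pooled from 4 female mice. Diabetic uninephrectomy and diabetic sham mice were OVE26 transgenic, and nondiabetic uninephrectomy and nondiabetic sham mice were controls of the same FVB/NJ background. OVE26 mice become diabetic early in life because a transgene expressed in pancreatic beta cells damages these cells. The mice lost a kidney or had sham surgery at 2 months of age, and the kidneys were taken 10 weeks later, at 4.5 months. All kidneys were perfused with buffered saline. With pooled RNA and 1 array per group, no value below measures the spread between animals, and differences between 2 groups stand without replication. Where values of diabetic and nondiabetic mice, or of the surgery groups, are said not to overlap, this arises easily with so few arrays. Its share over all probe sets was not counted.

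Wnt proteins are lipid-modified secreted ligands. On binding a frizzled receptor together with LRP5 or LRP6 they stop the Axin-containing destruction complex from degrading beta-catenin, which then enters the nucleus and switches on genes with TCF or LEF factors. Other Wnts, such as Wnt5a, act mostly without beta-catenin. Sfrp proteins and Frzb bind Wnt ligands outside the cell, while Dkk1, Dkk2 and Dkk4 act on the LRP co-receptors. In kidney, Wnt signals drive nephron formation in the embryo, are low in the healthy adult and are known to return after injury and in fibrosis.

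Whole kidney is a mixture, and in such RNA fewer cells of a type and less RNA per cell cannot be told apart. The kidney markers were present: all 4 loop and distal tubule and all 5 proximal tubule markers had signals above the filter. The proximal tubule sum was 53814 in diabetic uninephrectomy, 74216 in diabetic sham, 71995 in nondiabetic uninephrectomy and 72408 in nondiabetic sham mice. In this order the loop and distal tubule sum was 80788, 95129, 101637 and 91340. The collecting duct sum was 7552, 7772, 5679 and 7172. That of smooth muscle was 7755, 4558, 3538 and 3176, which its marker Myh11 did not follow. The summed signal of 6 fibroblast and mesenchyme markers was 18483 in diabetic uninephrectomy, 10469 in diabetic sham, 7102 in nondiabetic uninephrectomy and 7671 in nondiabetic sham mice. Its difference lay mainly in the collagen genes Col3a1 (6609.8, 2150.2, 1229.7 and 1122.0 in this order) and Col1a2 (5750.7, 2700.1, 1649.5 and 1833.3). Dcn had 3459.0, 3196.3, 2599.9 and 2658.6, and Pdgfra, with 893.9, 1283.6, 698.0 and 1081.2, was highest in diabetic sham mice. The summed signal of 4 adipocyte markers, of which Lep was below the filter on each array, was 13075, 25967, 5214 and 14168 in the same order, and that of 4 macrophage markers was 10771, 7265, 6162 and 7555. All 3 measured T and B cell markers were below the filter on every array. Control probes against 18S rRNA gave a signal 1.88-fold, 1.32-fold and 1.02-fold that of nondiabetic sham mice in diabetic uninephrectomy, diabetic sham and nondiabetic uninephrectomy mice. The part of these differences in the results below was not tested, except where a value is given.

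Differences are given as log2(signal + 26.4), where 26.4 is the 20th percentile of all signals on the 4 arrays; this offset understates the change of dim probe sets. A probe set passed the filter when its mean log2 value over the arrays reached 7.06, the median of all probe sets that are not controls, which corresponds to a signal of 107. Of the 91 member probe sets 37 passed, covering 22 of the 45 genes, and 33 of the 37 lay above that signal on all 4 arrays. Signals of different probe sets are not comparable with each other.

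**Figure D1:**
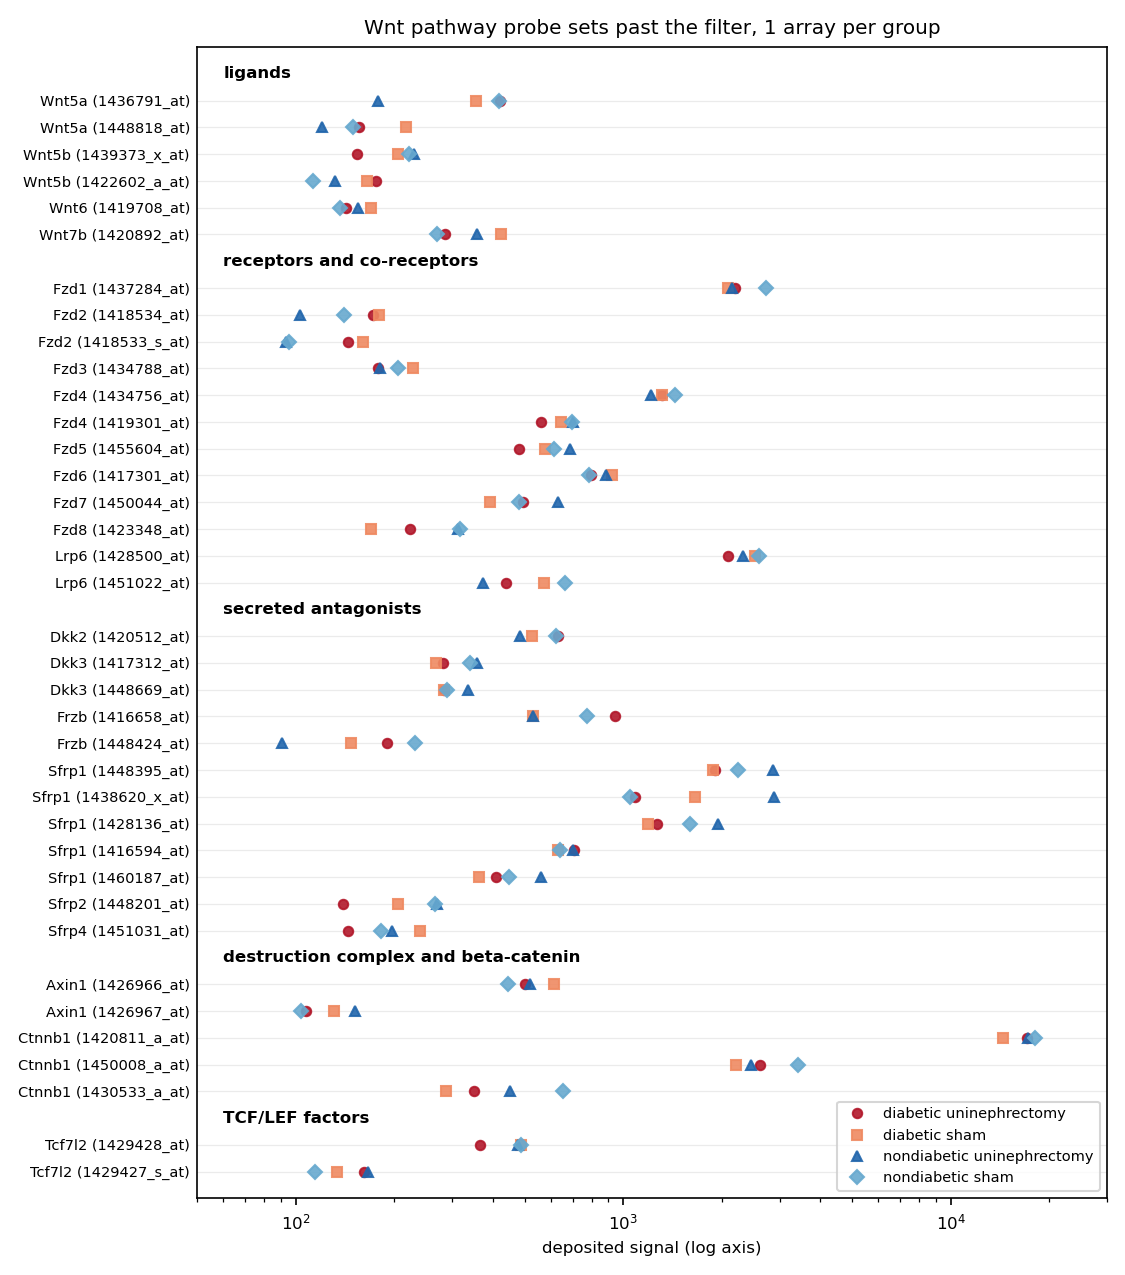
Deposited signal (log axis) of each of the 37 Wnt pathway probe sets past the filter, in rows by role, with 1 point for each of the 4 arrays (1 array per group, so there are no error bars). The widest spreads are those of Sfrp1 (1438620_x_at), Frzb (1448424_at), Wnt5a (1436791_at) and Ctnnb1 (1430533_a_at), followed by Sfrp2 and Fzd8.

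Most members differed by less than 2-fold. The median size of the difference, whatever its direction, was 0.35 for diabetes in uninephrectomised mice, 0.28 for diabetes in sham mice, 0.24 for uninephrectomy in diabetic mice and 0.24 for uninephrectomy in nondiabetic mice on the log2 scale. Over all named probe sets past the filter these sizes were 0.22, 0.20, 0.21 and 0.18, smaller in each comparison. The sizes were not compared at matched signal, and fewer of the members were bright. A 75th percentile filter kept 11 of the 22 member genes, against 6957 of all 11206 genes. In uninephrectomised mice 1 of 37 member probe sets was at least 2-fold higher in diabetic than in nondiabetic kidneys, against 1.75% of all 19364 named probe sets past the filter, and 1 was at least 2-fold lower, against 1.03%. In sham mice 0 were higher with diabetes, against 0.707%, and 1 was lower, against 0.589%. After uninephrectomy 0 were higher and 0 lower in diabetic mice, against 1.24% and 0.687%. In nondiabetic mice 1 was higher after uninephrectomy, against 0.744%, and 2 were lower, against 0.651%. As 1 probe set is 2.7% of the members, these counts are too small to set apart from the background. The 6 differences belonged to 4 genes, namely Wnt5a, Frzb, Sfrp1 and Ctnnb1, with 1 probe set each. Those of Wnt5a and Sfrp1 were each counted in 2 comparisons that share the nondiabetic uninephrectomy array. All but that of Ctnnb1 used this array, so they are not separate observations.

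For each factor, limma was fitted to all 4 arrays with the other factor as covariate, over 11206 genes, with the brightest probe set on average standing for the gene. The threshold was an adjusted p below 0.05 by Benjamini and Hochberg. With diabetes 165 genes rose (1.47%) and 82 fell (0.732%), and with uninephrectomy 37 rose (0.33%) and 20 fell (0.178%). Of the 22 member genes 0 passed for diabetes in limma (3 at an unadjusted p below 0.05, beside 9.48% of all genes) and 0 passed for uninephrectomy (0 at an unadjusted p below 0.05, beside 5.68%). The fit has 1 residual degree of freedom, so its standard errors rest mainly on the other genes near the same signal level. The 3 genes at an unadjusted p below 0.05 for diabetes in limma, Sfrp1, Fzd8 and Sfrp2, were all lower in diabetic kidneys. Over all genes, 455 of the 1062 at that p were lower, which is 4.06% of the 11206.

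The median difference of the 37 member probe sets with diabetes was -0.14 in uninephrectomised and -0.10 in sham mice, beside medians of -0.01 and -0.01 over all named probe sets past the filter. In each arm 24 members were lower and 13 higher in diabetic kidneys. The arrays were not aligned in their medians, however: the median log2 value of the nondiabetic uninephrectomy array was 0.13 above that of the nondiabetic sham array. With each array centred on its median, 18 members were higher and 19 lower with diabetes in uninephrectomised mice, with a median of -0.02. In sham mice the split stayed at 13 higher and 24 lower after centring, and the median was -0.19. Centring shifts all probe sets of a comparison by the same amount. The gap between the member median and that of all named probe sets was thus unchanged in both arms. For 19 of the 37 (51.4%) the arms of diabetes, which share no array, had the same direction, as they did for 52.1% of all named probe sets. With uninephrectomy the medians were -0.00 in diabetic and 0.02 in nondiabetic mice, and 17 of 37 (45.9%) had the same direction in both, against 47.9% of all.

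**Figure D2:**
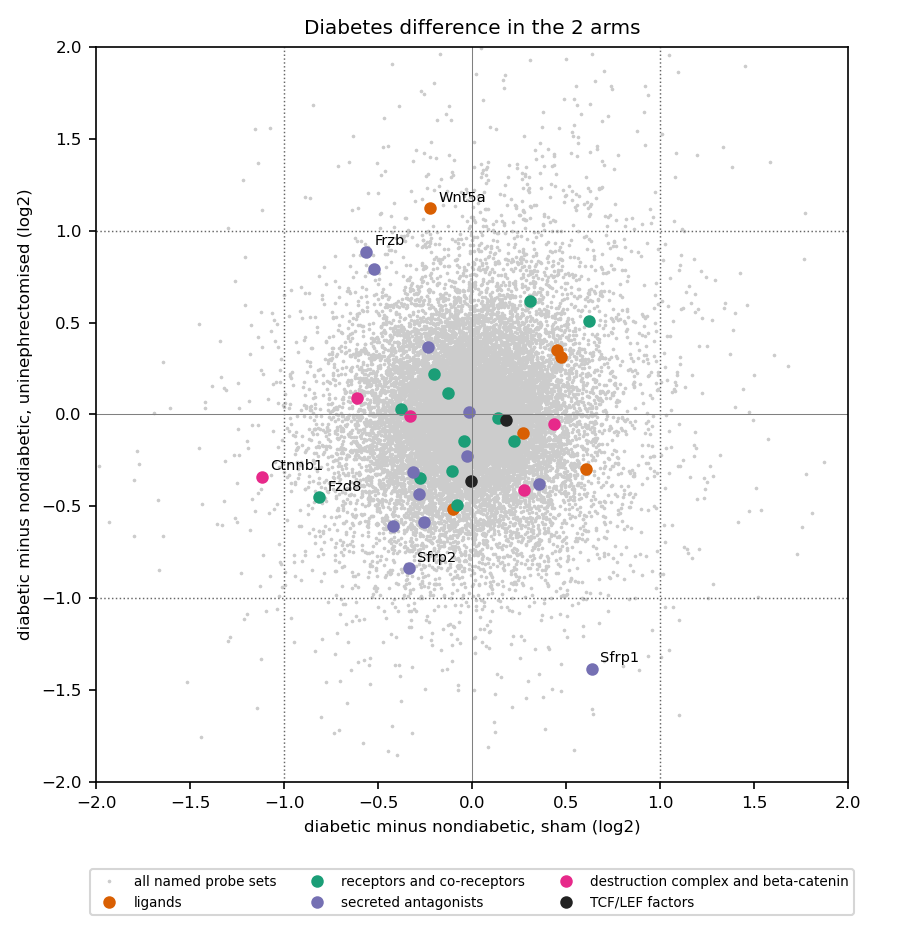
Diabetic minus nondiabetic difference on the log2 scale in sham mice (horizontal) and in uninephrectomised mice (vertical). Each point is a probe set past the filter, grey for all named ones (64 lie outside the axes) and coloured by role for the 37 members; dotted lines mark 2-fold, and names are given where either difference of a member was at least 0.8. The members lie within the grey cloud, with Wnt5a and Frzb at the upper left and a single Sfrp1 probe set at the lower right.

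Among the ligands, 4 of 19 genes had a probe set past the filter: Wnt5a, Wnt5b, Wnt6 and Wnt7b. Wnt5a, a ligand of stromal cells that signals mostly without beta-catenin, was lowest on the nondiabetic uninephrectomy array. Its probe set 1436791_at had signals of 421.1 in diabetic uninephrectomy, 354.8 in diabetic sham, 178.8 in nondiabetic uninephrectomy and 418.5 in nondiabetic sham mice. That array thus stood apart from the other 3. In uninephrectomised mice it was 1.12 higher with diabetes on the log2 scale, while in sham mice the difference was -0.22. Uninephrectomy gave 0.23 in diabetic and -1.12 in nondiabetic mice. The second probe set past the filter, 1448818_at, had signals of 155.8, 217.7, 120.4 and 149.2 in the same order, so it too was lowest in nondiabetic uninephrectomy mice. Its differences with diabetes were 0.31 in uninephrectomised and 0.48 in sham mice. Both probe sets were thus higher with diabetes after uninephrectomy, and they differed in sign in sham mice. The mean diabetes difference of Wnt5a was 0.45 ± 0.26 (limma SE, adjusted p = 0.68). Another probe set, 1437673_at, lay below the filter and had 72.0, 68.3, 18.2 and 64.0, again lowest in nondiabetic uninephrectomy mice, while the fourth, 1456976_at, was lowest in nondiabetic sham mice (88.2, 95.6, 78.5 and 41.4).

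Wnt7b, a ligand of the collecting duct epithelium during development of the medulla, had 285.4 and 423.9 in diabetic uninephrectomy and diabetic sham mice, against 356.9 and 269.8 in nondiabetic uninephrectomy and nondiabetic sham mice. The diabetes difference was -0.30 in uninephrectomised and 0.60 in sham mice, so the arms went opposite ways. The dimmer Wnt7b probe set 1420891_at, below the filter, had the reverse signs, 0.91 in uninephrectomised and -0.65 in sham mice. Wnt5b, a relative of Wnt5a, had 2 probe sets past the filter that differed in sign with diabetes in both arms: -0.51 and -0.10 for 1439373_x_at, 0.35 and 0.45 for 1422602_a_at, in uninephrectomised and sham mice. Wnt6 had signals of 142.5, 170.0, 154.7 and 136.2 in diabetic uninephrectomy, diabetic sham, nondiabetic uninephrectomy and nondiabetic sham mice, a narrow range.

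The other 15 ligand genes had no probe set past the filter. The 26 ligand probe sets below it had signals between 1.5 and 196.6, and 21 of them were below the filter signal on all 4 arrays. Wnt4, needed for nephron formation and known to return in injured tubules, came closest. Its probe set 1450782_at lay just below the filter, with signals of 196.6 in diabetic uninephrectomy and 54.8 in diabetic sham mice, against 89.9 in nondiabetic uninephrectomy and 100.7 in nondiabetic sham mice. It was thus highest on the diabetic uninephrectomy array, but the other Wnt4 probe set, 1441687_at, had 70.2, 84.3, 55.1 and 20.2 and did not follow it. Wnt10a had 147.5, 42.8, 44.6 and 38.3, the value in diabetic uninephrectomy mice standing apart from the other 3. It has a single probe set. Such differences were common among dim probe sets. Of the 54 member probe sets below the filter, 4 (7.41%) were at least 2-fold higher and 6 (11.1%) lower with diabetes in uninephrectomised mice, against 5.78% and 10.5% of all named probe sets below the filter. In sham mice 3 (5.56%) were higher and 4 (7.41%) lower, against 9.75% and 5.53%. After uninephrectomy 8 (14.8%) were higher and 3 (5.56%) lower in diabetic mice, against 6.01% and 10.0%. In nondiabetic mice 4 (7.41%) were higher and 5 (9.26%) lower, against 10.0% and 5.04%.

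Of 12 receptor and co-receptor genes, 9 had a probe set past the filter: Lrp6 and the frizzled genes Fzd1 to Fzd8. None of their 12 probe sets was 2-fold different in any of the 4 comparisons, whose extremes were -0.81 and 0.62. Fzd8, a frizzled that works with LRP6 in beta-catenin signalling, had the lowest difference. The signals of 1423348_at were 222.6 in diabetic uninephrectomy and 169.6 in diabetic sham mice, against 313.4 in nondiabetic uninephrectomy and 318.0 in nondiabetic sham mice. Both diabetic values lay below both nondiabetic ones. The mean diabetes difference was -0.63 ± 0.28 (limma SE, adjusted p = 0.38). The dimmer probe set 1445815_at did not share this, with 157.1, 58.3, 77.1 and 93.1 in diabetic uninephrectomy, diabetic sham, nondiabetic uninephrectomy and nondiabetic sham mice.

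Fzd2, which can receive Wnt5a, was on the higher side in diabetic kidneys. Its probe set 1418534_at had 172.5 and 179.6 in diabetic uninephrectomy and diabetic sham mice, against 103.1 and 140.2 in nondiabetic uninephrectomy and nondiabetic sham mice. For 1418533_s_at the signals were 143.9 and 160.9 against 93.4 and 95.2. Diabetic and nondiabetic values did not overlap in either probe set, which arises easily with so few arrays. The differences were 0.62 and 0.51 in uninephrectomised and 0.31 and 0.62 in sham mice, and the mean of 1418534_at was 0.46 ± 0.34 (limma SE, adjusted p = 0.82). Another, dimmer probe set ran the other way, with 54.6 and 14.6 in diabetic against 72.0 and 117.9 in nondiabetic mice. Fzd7 was -0.31 ± 0.22 with diabetes (limma SE, adjusted p = 0.80), from 492.4 and 392.6 in diabetic uninephrectomy and diabetic sham mice, against 633.3 and 481.9 in nondiabetic uninephrectomy and nondiabetic sham mice. Here the value of diabetic uninephrectomy mice lay above that of nondiabetic sham mice.

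Lrp6, the co-receptor that carries the signal across the membrane, had 2089.8 and 2525.4 in diabetic uninephrectomy and diabetic sham mice, against 2312.4 and 2604.8 in nondiabetic uninephrectomy and nondiabetic sham mice for 1428500_at. Both uninephrectomy values lay below both sham values. The dimmer 1451022_at had the same order of surgery groups (438.9 and 372.9 after uninephrectomy against 574.6 and 665.2 after sham, diabetic first). The mean uninephrectomy difference of 1428500_at was -0.22 ± 0.15 (limma SE, adjusted p = 1). Fzd1 had 2200.9, 2084.6, 2153.0 and 2718.3 in diabetic uninephrectomy, diabetic sham, nondiabetic uninephrectomy and nondiabetic sham mice, highest on the last. The differences of Fzd3, Fzd4, Fzd5 and Fzd6 past the filter lay within the extremes given above. The co-receptor Lrp5, with signals between 6.5 and 58.1, and Fzd9 and Fzd10 had no probe set past the filter.

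Of the 9 secreted antagonist genes, 6 had a probe set past the filter. They held 12 of the 37 member probe sets and 3 of the 6 differences of at least 2-fold, beside 2 among the ligands and 1 in Ctnnb1. Of the 3, 2 came from 1 Sfrp1 probe set, and the 2 among the ligands came from 1 Wnt5a probe set. Frzb, also called secreted frizzled-related protein 3, binds Wnt ligands through a frizzled-like domain. Its brighter probe set 1416658_at had signals of 940.5 in diabetic uninephrectomy, 531.8 in diabetic sham, 531.7 in nondiabetic uninephrectomy and 773.9 in nondiabetic sham mice. For 1448424_at they were 190.0, 147.9, 90.7 and 231.5. In both probe sets diabetic uninephrectomy and nondiabetic sham mice were high, and the groups with diabetes alone or uninephrectomy alone were low. With diabetes the differences were 0.79 and 0.89 in uninephrectomised mice and -0.52 and -0.57 in sham mice. After uninephrectomy they were 0.79 and 0.31 in diabetic and -0.52 and -1.14 in nondiabetic mice. The arms of each factor thus went opposite ways in both probe sets, and their mean, the quantity that limma tests, was 0.14 ± 0.21 for 1416658_at with diabetes (limma SE, adjusted p = 0.98).

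The difference between the arms, diabetes in uninephrectomised mice minus diabetes in sham mice, was 1.31 and 1.45 for the probe sets of Frzb and 1.35 for Wnt5a 1436791_at. These 3 of 37 members (8.11%) were past 2-fold in the positive direction, against 2.75% of all named probe sets, and 1 (2.7%) was in the negative direction, Sfrp1 1438620_x_at, against 2.79%. This difference uses all 4 arrays and leaves no residual, so it was not tested. The adipocyte sum was lower after uninephrectomy both in nondiabetic mice (5214 against 14168), where Frzb was lower, and in diabetic mice (13075 against 25967), where Frzb was higher. In diabetic mice the adipocyte difference lay mainly in Car3 (2874.3 against 14557.5). Adipoq was lower too (293.5 against 1379.8), while Fabp4 hardly differed (9898.8 against 10019.9). The fibroblast and mesenchyme sum was highest in diabetic uninephrectomy mice. The part of these cells in the Frzb values was not tested.

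Sfrp1, a Wnt-binding antagonist, had 5 probe sets, all past the filter. The one with the highest mean, 1448395_at, had 1904.3 and 1873.3 in diabetic uninephrectomy and diabetic sham mice, against 2875.4 and 2245.4 in nondiabetic uninephrectomy and nondiabetic sham mice. Both diabetic values lay below both nondiabetic ones. The mean diabetes difference was -0.42 ± 0.15 (limma SE, adjusted p = 0.19), from -0.59 in uninephrectomised and -0.26 in sham mice. In 1428136_at (1271.2 and 1187.1 in diabetic, 1948.9 and 1600.5 in nondiabetic mice) and 1460187_at (408.7 and 363.6 in diabetic, 560.8 and 447.6 in nondiabetic mice) the order was the same, so 3 of 5 probe sets were lower with diabetes in both arms. So were 5286 of all 19364 named probe sets past the filter. The probe sets of Sfrp1 share the same arrays and are not separate observations. The fourth, 1416594_at, hardly differed, with 705.8, 633.4, 699.8 and 642.1 in diabetic uninephrectomy, diabetic sham, nondiabetic uninephrectomy and nondiabetic sham mice.

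The fifth Sfrp1 probe set, 1438620_x_at, stood apart from the rest. It had 1086.8, 1650.9, 2877.3 and 1051.4 in the same order, so that its diabetes difference was -1.38 in uninephrectomised and 0.64 in sham mice. Its uninephrectomy difference was 1.43 in nondiabetic and -0.59 in diabetic mice. An ID ending in _x_at marks a probe set some of whose probes also match other transcripts. Uninephrectomy differences of nondiabetic mice were above 0 in all 5 probe sets, at 0.12 to 1.43, and 4 of 5 were highest on the nondiabetic uninephrectomy array. The share of all probe sets that were highest on that array was not counted.

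**Figure D3:**
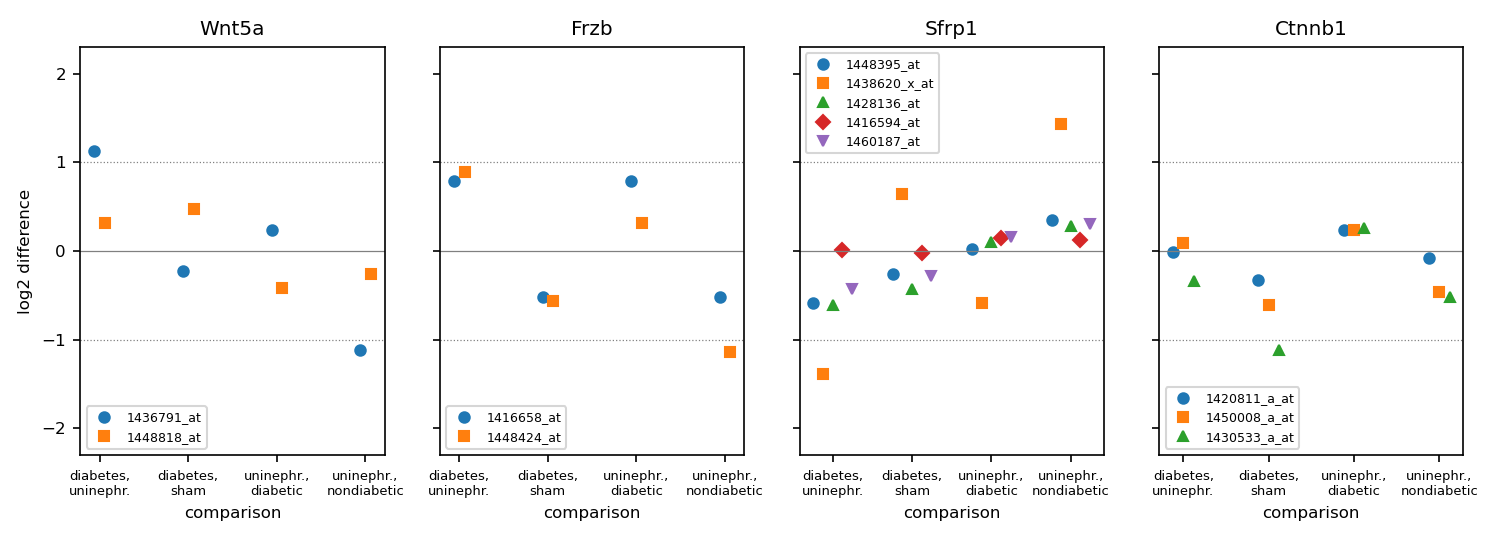
Log2 differences of each probe set past the filter of Wnt5a, Frzb, Sfrp1 and Ctnnb1 in the 4 comparisons (uninephr., uninephrectomy), with dotted lines at 2-fold; each point is a difference between 2 arrays, so there are no error bars. The 2 probe sets of Frzb share their sign in each comparison and lie near each other for diabetes. The 3 of Ctnnb1 lie closest for uninephrectomy in diabetic mice and furthest apart for diabetes in sham mice. Of Sfrp1, 1438620_x_at leaves the other 4.

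Sfrp2, a relative of Sfrp1, had 139.5 and 204.6 in diabetic uninephrectomy and diabetic sham mice, against 270.2 and 265.5 in nondiabetic uninephrectomy and nondiabetic sham mice. Both diabetic values were below both nondiabetic ones, with a mean difference of -0.59 ± 0.29 (limma SE, adjusted p = 0.53). The gene has a single probe set. Lower Sfrp1 and Sfrp2 signals stood beside higher sums of the fibroblast and mesenchyme markers in diabetic mice, and the part of one in the other was not tested. Dkk2 had 630.2, 525.5, 483.4 and 622.2 in diabetic uninephrectomy, diabetic sham, nondiabetic uninephrectomy and nondiabetic sham mice, the same order of high and low groups as Frzb with smaller differences (0.37 and -0.23 with diabetes in uninephrectomised and sham mice). Dkk3, a divergent Dkk family member, was lower with diabetes in both arms and both probe sets, with differences between -0.32 and -0.03. Sfrp4 had 144.8 and 239.8 in diabetic uninephrectomy and diabetic sham mice, against 196.2 and 181.6 in nondiabetic uninephrectomy and nondiabetic sham mice. Dkk1, Dkk4 and Sfrp5 had no probe set past the filter, and their highest signal was 112.8.

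Ctnnb1 encodes beta-catenin itself, whose amount is set mainly by protein stability. Its 3 probe sets were all highest in nondiabetic sham and lowest in diabetic sham mice. The signals of 1420811_a_at were 17037.0, 14437.1, 17162.9 and 18139.7 in diabetic uninephrectomy, diabetic sham, nondiabetic uninephrectomy and nondiabetic sham mice. For 1450008_a_at they were 2620.9, 2216.3, 2462.7 and 3406.9. For 1430533_a_at they were 350.5, 287.5, 450.2 and 655.9. The diabetes difference in sham mice was -0.33, -0.61 and -1.12 in this order of probe sets, so the direction was shared and the size was not. In uninephrectomised mice it was -0.01, 0.09 and -0.34. In limma, 1420811_a_at had a mean of -0.17 ± 0.19 (adjusted p = 0.95).

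Axin1, the scaffold of the destruction complex, had 500.5, 613.8, 519.7 and 446.1 for 1426966_at in diabetic uninephrectomy, diabetic sham, nondiabetic uninephrectomy and nondiabetic sham mice. Both of its probe sets had opposite signs in the arms of diabetes: -0.05 and -0.41 in uninephrectomised mice, 0.44 and 0.28 in sham mice. Axin2, a feedback inhibitor that beta-catenin switches on in many tissues, lay below the filter. Its brighter probe set 1436845_at had 59.7 and 93.3 in diabetic uninephrectomy and diabetic sham mice, against 118.9 and 66.7 in nondiabetic uninephrectomy and nondiabetic sham mice. The diabetic and nondiabetic values overlapped. Among the nuclear factors, Tcf7l2 had 2 of 4 probe sets past the filter. Those of 1429428_at were 364.1, 485.5, 475.5 and 488.3 in diabetic uninephrectomy, diabetic sham, nondiabetic uninephrectomy and nondiabetic sham mice, lowest in the first, whereas 1429427_s_at had 161.7, 133.3, 165.8 and 114.3. Both Lef1 probe sets lay below the filter, with signals between 4.5 and 79.7.

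Agreement between probe sets of a gene gives a view of error between probe sets, but not between arrays or pools, which they share. Most of these genes had few probe sets past the filter, where a shared sign arises easily, and the share over all genes was not counted. Of 11 member genes with several probe sets past the filter, all probe sets had the same sign in 6 for diabetes in uninephrectomised mice, in 7 for diabetes in sham mice, in 7 for uninephrectomy in diabetic mice and in 9 for uninephrectomy in nondiabetic mice. Axin1, Dkk3, Frzb and Fzd2 had the same sign within every comparison.

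Promoters are shown for Frzb and Ctnnb1, whose probe sets shared a pattern, and for Axin2, a standard readout of the pathway. They run 5′ to 3′ from 250 bases before to 50 bases after the start given by RefSeq (GRCm38.p6), and capitals mark the TCF/LEF core CTTTGA or its reverse complement TCAAAG. Frzb lies on the minus strand at chr2:80447347-80447646. The first of 2 Ctnnb1 starts is on the plus strand at chr9:120933150-120933449, and Axin2 is on the plus strand at chr11:108920099-108920398.
Frzb: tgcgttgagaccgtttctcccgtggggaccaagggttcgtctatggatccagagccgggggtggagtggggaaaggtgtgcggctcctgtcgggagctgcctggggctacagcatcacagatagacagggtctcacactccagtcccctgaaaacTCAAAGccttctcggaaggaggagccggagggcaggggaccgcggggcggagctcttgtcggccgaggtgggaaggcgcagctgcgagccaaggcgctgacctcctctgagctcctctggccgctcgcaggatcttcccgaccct
Ctnnb1: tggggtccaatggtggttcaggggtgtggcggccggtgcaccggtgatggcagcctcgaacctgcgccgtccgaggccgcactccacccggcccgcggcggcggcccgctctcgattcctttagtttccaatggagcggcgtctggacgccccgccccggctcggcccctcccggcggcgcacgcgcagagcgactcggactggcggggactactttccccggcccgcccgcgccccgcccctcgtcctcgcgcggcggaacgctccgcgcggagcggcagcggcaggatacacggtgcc
Axin2: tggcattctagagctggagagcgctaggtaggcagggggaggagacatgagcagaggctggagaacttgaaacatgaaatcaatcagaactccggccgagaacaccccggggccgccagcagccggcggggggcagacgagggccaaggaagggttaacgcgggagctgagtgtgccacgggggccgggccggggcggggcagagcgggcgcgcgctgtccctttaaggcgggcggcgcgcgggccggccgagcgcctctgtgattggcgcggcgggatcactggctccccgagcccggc
The Frzb window holds 1 core, starting 95 bases before the start site, and the other windows shown hold 0. The core was present in 16.0% of all 32851 promoter windows and in 6 of the 38 windows of the 30 member genes that the table covers (Dkk1, Frzb, Fzd1, Lef1, Wnt11 and Wnt5b). The GC content of the windows shown was 64.7% for Frzb, 75.3% for Ctnnb1 and 70.0% for Axin2. These matches describe the letters and are not binding sites.

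Genes elsewhere in the pathway were followed in lists by role. Of 74 genes of ligand secretion, R-spondin receptors, alternative receptors, further antagonists and cytoplasmic and nuclear steps, 52 were past the filter. In limma 0 of them passed for diabetes (0 at an unadjusted p below 0.05) and 0 for uninephrectomy (1 at an unadjusted p below 0.05). Their median mean difference was 0.02 with diabetes and -0.06 with uninephrectomy. The gene at an unadjusted p below 0.05 was Gsk3a, a kinase that marks beta-catenin for degradation, with 1880.5 and 1730.5 in diabetic uninephrectomy and diabetic sham mice, against 2309.3 and 1330.5 in nondiabetic uninephrectomy and nondiabetic sham mice. Its mean uninephrectomy difference was 0.45 ± 0.16 (limma SE, adjusted p = 0.35). Porcn, which attaches the lipid to Wnt ligands, had 110.0, 175.4, 150.1 and 205.3 in diabetic uninephrectomy, diabetic sham, nondiabetic uninephrectomy and nondiabetic sham mice, with both uninephrectomy values below both sham values. Ryk, an alternative Wnt receptor, had 964.8, 782.2, 627.4 and 1084.6 in this order, with the same high and low groups as Frzb.

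The other genes of these lists with the largest mean difference for either factor, up to 4 a list, did not pass limma either. For ligand processing, Apcdd1, a membrane Wnt inhibitor, had a mean diabetes difference of 0.46 and Gpc6, a glypican, had a mean uninephrectomy difference of 0.43. Apcdd1 was 0.77 higher with diabetes in sham mice and 0.14 in uninephrectomised mice. Notum, Lgr5 and Znrf3, also in these lists, are described among the targets, and the R-spondin receptor Lgr4 had 0.16 with diabetes. Among alternative receptors and planar polarity genes, the diabetes means were -0.37 for the receptor Ror1, -0.28 for Prickle1 and -0.25 for Celsr1. All 3 were lower with diabetes in both arms. Of the further antagonists, Igfbp4, a binding protein that also acts on LRP6, had -0.22 with diabetes, Sostdc1, an inhibitor of Wnt and BMP signals, had 0.19, and the Dkk receptor Kremen1 had -0.12. In the cytoplasm Btrc, which tags beta-catenin for degradation, had the largest mean, -0.52 with uninephrectomy, from 142.4 and 176.0 after uninephrectomy against 249.4 and 228.2 after sham surgery, diabetic mice first. Ctnnbip1, an inhibitor of beta-catenin binding to TCF, had 0.41 with diabetes, and Amer1, a scaffold of the destruction complex, had 0.27. In the nucleus the corepressor Tle2 had -0.46 and the corepressor Ctbp2 0.26 with uninephrectomy, while Sox17 had 0.43 and the coactivator Bcl9 0.33 with diabetes. Tcf7l1, a TCF factor that mostly represses, was outside this choice by its mean but had the largest single difference of these lists past the filter apart from Lgr5, -0.81 with uninephrectomy in diabetic mice, beside 0.31 in nondiabetic mice; it was named after its values were seen.

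Of 36 genes known as Wnt targets in some tissue, 22 were past the filter. The list was chosen with earlier results of these data known, so its share describes these genes and is no test of the pathway. With diabetes 5 of the 22 (22.7%) rose and 0 fell in limma, beside 1.47% and 0.732% of all genes. They were Ccnd1, a cyclin of the G1 phase, S100a4, a protein of fibroblasts and myeloid cells, Fn1, the matrix protein fibronectin, Cd44, a hyaluronan receptor, and Agt, the precursor of angiotensin. Ccnd1 had 7421.7 and 6141.3 in diabetic uninephrectomy and diabetic sham mice, against 4142.0 and 4931.9 in nondiabetic uninephrectomy and nondiabetic sham mice. Its mean difference was 0.58 ± 0.16 (limma SE, adjusted p = 0.031). S100a4 had 597.8 and 211.3 in diabetic uninephrectomy and diabetic sham mice, against 106.1 and 107.7 in nondiabetic uninephrectomy and nondiabetic sham mice. In both genes the diabetic values lay above the nondiabetic ones. Fn1 rose by 0.84 ± 0.17 (limma SE, adjusted p = 0.00084), Cd44 by 1.53 and Agt by 0.74. These calls did not hold under every setting: 0 of the 22 passed without a trend in the variance, 0 with every probe set fitted singly, and 2 (Cd44 and S100a4) with each array centred on its median. The median mean difference of the 22 was 0.20, beside -0.00 over all 11206 genes. All 5 have inputs other than Wnt, and their rise stood beside the higher fibroblast and mesenchyme sums of diabetic mice given above. The macrophage sum was higher in diabetic than in nondiabetic uninephrectomised mice but not in sham mice. Its difference lay mainly in Lyz2, with 5042.8, 1010.8, 634.8 and 726.8 in diabetic uninephrectomy, diabetic sham, nondiabetic uninephrectomy and nondiabetic sham mice, whereas Csf1r had 5181.9, 5928.5, 5092.9 and 6557.7. Of the macrophage markers only Csf1r, the brightest in sham mice, was lower with diabetes there. Lyz2 was higher, as were Adgre1 (226.0 against 203.7) and Cd68 (99.5 against 66.3, mean below the filter). The part of these cells in the target genes was not tested.

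Myc, a growth-promoting transcription factor, had 553.7, 214.0, 245.7 and 129.2 in diabetic uninephrectomy, diabetic sham, nondiabetic uninephrectomy and nondiabetic sham mice, and missed the threshold for both factors (limma adjusted p = 0.1 for diabetes and 0.064 for uninephrectomy). Targets that are themselves feedback regulators of the pathway were looked at after their values were seen. Lgr5 had 68.6 and 136.3 in diabetic uninephrectomy and diabetic sham mice, against 152.8 and 89.9 in nondiabetic uninephrectomy and nondiabetic sham mice. Notum had 389.6, 417.5, 536.3 and 431.9 in the same order, and Znrf3 492.2, 511.8, 641.9 and 417.5. In limma their mean diabetes differences were -0.22, -0.24 and -0.04, with adjusted p of 0.98, 0.91 and 1. For uninephrectomy 0 of the 22 target genes passed limma (4 at an unadjusted p below 0.05, beside 5.68% of all genes).

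**Figure D4:**
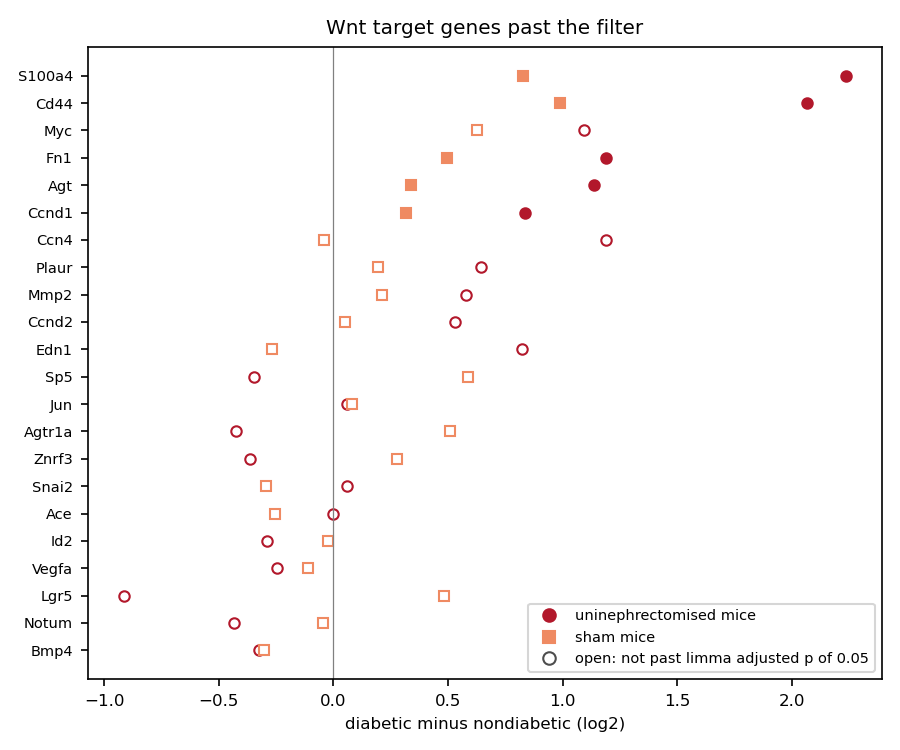
Diabetic minus nondiabetic difference on the log2 scale of the 22 Wnt target genes past the filter, in uninephrectomised (circles) and sham mice (squares); filled symbols mark the 5 genes with a limma adjusted p below 0.05 for diabetes. All 5 lie above 0 in both arms, with S100a4 and Cd44 the furthest to the right.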

How the data were processed

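The deposited table holds linear intensity values of 45101 probe sets on 4 arrays, already summarised from single probes. The mean without the highest and lowest 2% is 500.003 on each array, so the authors had scaled the intensity values to a common level. Per the labels' protocols, 100 ng of RNA pooled from 4 mice was labelled with the 3' IVT Express kit. Which software summarised the arrays, and its background correction, is not given in the sources used here. Precision is limited by the number of arrays.

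Probe sets were named by the platform annotation, with symbols updated through Entrez numbers in RefSeq (GRCm38.p6, 34741 of 34945 found, 0 changed). The 64 control probe sets and 932 with several symbols were left out. Values were set on the log2(intensity + 26.4) scale without further normalisation. An additive fit of diabetes and surgery used limma 3.58.1 (R 4.3.3, eBayes with a trend, 57.9 prior degrees of freedom). The fit was also run on simulated data with known changes, whose noise followed the variance trend of the fit itself. This checks the code and not whether that trend holds for these arrays.

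Members and gene lists were chosen with earlier results of these data known. Named were member probe sets at least 2-fold different in any comparison, in each role the 2 brightest genes and the 2 highest and 2 lowest by mean diabetes difference, and from each other list up to 4 genes with the largest mean difference for either factor and all that passed. Alternatives were quantile normalisation, median centring, other filters and offsets (1 and 72.5), a 1.5-fold threshold, genes in place of probe sets, limma without a trend, on the mean of probe sets or on every probe set, an adjusted p below 0.1 and, added after the data were seen, leaving out probe sets ending in _s_at or _x_at, and the limma alternatives for the target genes.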

Additional observations from a re-analysis of the deposited data

Results flagged for a closer look

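The Sfrp1 probe set 1438620_x_at went opposite ways in the arms of both factors by more than 1.5-fold. With diabetes the log2 difference was -1.38 in uninephrectomised and 0.64 in sham mice, and with uninephrectomy it was -0.59 in diabetic and 1.43 in nondiabetic mice. The difference of the arms was -2.02 for both factors, as it is the same contrast of the 4 arrays, and it was not tested. None of the other 4 Sfrp1 probe sets did this: their arms of diabetes lay between -0.61 and 0.01 in uninephrectomised and between -0.42 and -0.02 in sham mice.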

How the results depend on the processing

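Among the recomputed counts and medians 73 stayed close to the reported value and 27 moved. No filter gave 12, 8, 11 and 12 member probe sets at least 2-fold different, of 91, for diabetes in uninephrectomised mice, diabetes in sham mice, uninephrectomy in diabetic mice and uninephrectomy in nondiabetic mice, where 2, 1, 0 and 3 of 37 had been counted; over all named probe sets without a filter 8.8%, 7.53%, 8.22% and 7.5% differed. The 75th percentile filter left 1, 0, 0 and 1 of 17. The offset of 72.5 gave 1 for diabetes in uninephrectomised mice and 1 for uninephrectomy in nondiabetic mice, where Wnt5a 1436791_at (0.97 and -0.97) and Frzb 1448424_at (-0.90) fell short of 2-fold. A 1.5-fold threshold gave 8, 6, 3 and 4 of 37, beside 12.5%, 8.58%, 9.66% and 7.88% of all named probe sets past the filter. Counted over 22 genes by their probe set with the highest mean, 1, 0, 0 and 1 differed. Without probe sets ending in _s_at or _x_at, 1 of 33 differed for diabetes in uninephrectomised mice. Median centring moved the member median to -0.0246 for diabetes in uninephrectomised mice and to -0.11 for uninephrectomy in nondiabetic mice, where 14 members were then higher and 23 lower, against 20 and 17 before. It shifted all named probe sets of a comparison by the same amount, so their median moved with that of the members. The cause of these changes beyond the altered filter, offset or centring was not tested. No 2-fold difference reversed under quantile normalisation, median centring or the other offsets. In limma 0 member genes passed for either factor under each of the 10 alternatives run, with lowest adjusted p between 0.13 and 0.66 for diabetes. Over all genes the number passing for diabetes was 247, but 0 without a trend and 3 with the mean of probe sets. The number of Wnt target genes passing for diabetes was 5, but 0 with no filter, 0 without a trend, 0 with the mean of probe sets, 0 with every probe set fitted singly, 2 with median centring and 3 of 11 past the 75th percentile filter; these alternatives were chosen after seeing the data. For uninephrectomy 0 had passed, but 1 (Myc) did with quantile normalisation and 2 (Cd44 and Myc) did with the offset of 72.5 or an adjusted p below 0.1. No paired analysis was possible because each group has 1 array.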
